A study of Mus musculus with 6 samples.

Results

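The expression of alpha-fetoprotein (Afp), of the transcription factors known to repress it and of other oncofetal genes was measured in livers lacking Vps15. The group held 10 genes of the 56305 in the expression table and was set by name: Afp, Gpc3, the repressors Zhx2, Zbtb20 and Zfhx3, the RNA-binding proteins Igf2bp1, Igf2bp2 and Igf2bp3, and the regulators Lin28b and Hmga2. The data were RNA-seq of whole liver from 3 WT and 3 Vps15LKO mice, which were males of 5 weeks fed chow ad libitum, with livers taken at ZT6, that is 6 h after lights on. Vps15LKO mice (AlbCre+;Vps15 f/f) lost Vps15, the regulatory subunit of the class 3 phosphoinositide 3-kinase, through Cre driven by the albumin promoter. Liver cells in which that promoter had never been active kept the gene. Controls were labelled WT, and which Vps15 alleles they carried was not given in the sources used here. Each library came from 1 liver.

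Afp belongs to the albumin family and is the main plasma protein of the fetal liver. After birth its transcription is shut down in hepatocytes, a step that involves Zhx2, Zbtb20 and Zfhx3 (also known as Atbf1), and it returns in regenerating liver and in hepatocellular carcinoma. Oncofetal genes share this behaviour: glypican-3 (Gpc3) is a surface proteoglycan, the Igf2bp proteins bind and stabilize fetal mRNAs, Hmga2 is a chromatin protein of growing embryonic tissue, and Lin28b blocks the maturation of let-7 microRNAs, which in turn repress Hmga2, the Igf2bp genes and Lin28b itself.

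Libraries held 16137093 to 18110223 reads on genes. Values are normalized counts, that is reads divided by the size factor of the library, and a single read was worth 1.25 to 1.35 of them in a WT library but 0.707 to 0.810 in a Vps15LKO library. This gap matters for the whole account, because the typical tested gene had a log2 fold change of -0.02 (median) by the deposited scaling and of 0.70 when libraries were scaled to total reads. Values are by the deposited scaling unless total reads or RPM are named. The targeted gene itself, Pik3r4 (which encodes Vps15), read 508, 573 and 460 in WT and 341, 362 and 355 in Vps15LKO livers (log2 fold change -0.54, SE 0.11, limma adjusted p = 0.0021). In RPM (reads per 1000000 reads on genes) its groups overlapped and the log2 fold change was 0.19, and the counts cover the whole gene rather than the deleted part, so they are a weak check of the genotype.

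A gene was tested when at least 3 of the 6 livers reached 20 normalized counts, and it was called when the limma adjusted p was under 0.05 and the fold at least 1.2. By that filter 7 of the 10 genes were tested, and Igf2bp1, Lin28b and Hmga2 were not. Calls were made for 4 genes as higher and 1 as lower, in a data set where 66.5% of 15430 tested genes were called, 33.5% higher and 33.0% lower, so a call alone says little here. Igf2bp2 and Igf2bp3 passed the filter only because of the Vps15LKO livers. The groups did not overlap for 5 of the 7 tested genes, against 73.2% of all tested genes. When libraries were scaled to total reads, 6 of the 7 were called higher and none lower, where 66.7% of all tested genes were called higher and 11.1% lower, and 6 did not overlap, against 82.0% of all. A log2 fold change of at least 3 was seen for 4.96% of tested genes, among them Afp, Gpc3 and Igf2bp3.

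**Figure D1:**
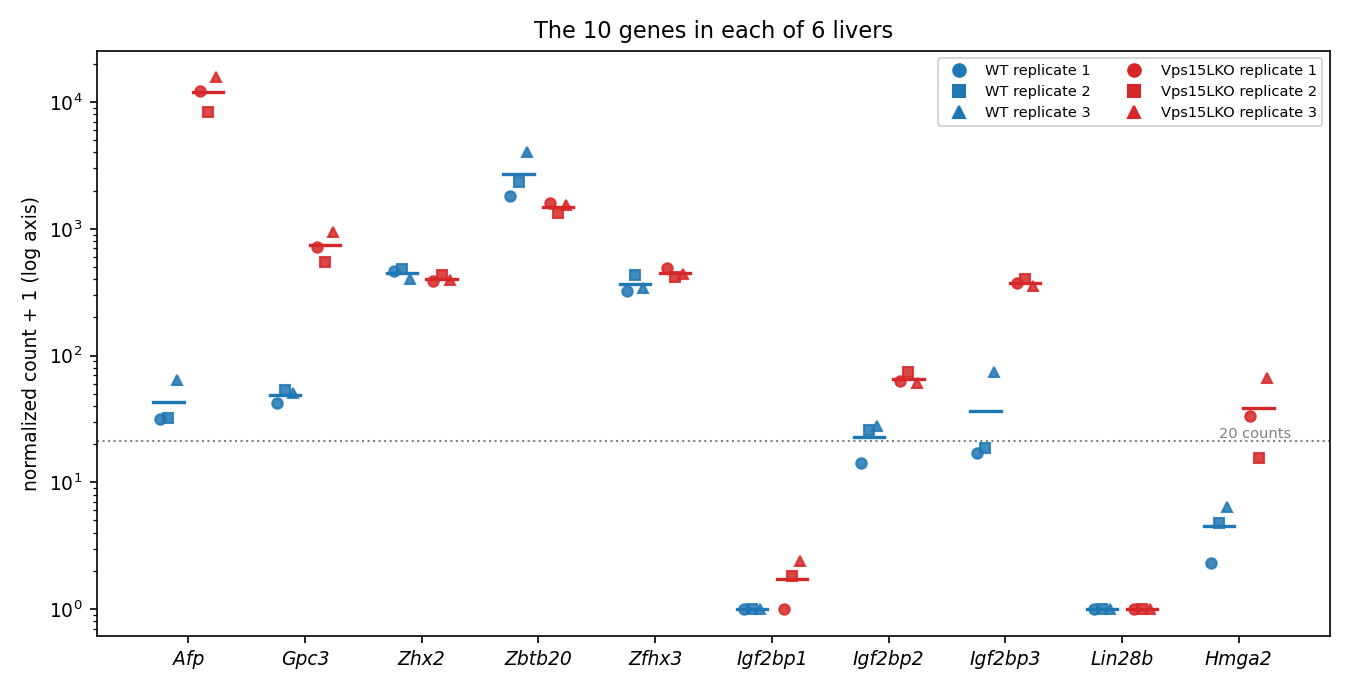
Normalized count plus 1 of each of the 10 genes, on a log axis, in each of 3 WT (blue) and 3 Vps15LKO (red) livers. Symbols give the replicate, horizontal bars the group mean and the dotted line 20 normalized counts. Afp lay at 30.5 to 63.4 in WT and at 8297 to 15643 in Vps15LKO livers, while Lin28b had no read in any liver.

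Afp (ENSMUSG00000054932, GRCm38 chr5:90490737-90508907) was close to silent in WT livers and abundant in Vps15LKO livers. The WT livers gave 30.5, 31.2 and 63.4 normalized counts (23, 25 and 47 reads), and the Vps15LKO livers gave 12302, 8297 and 15643 (16110, 10239 and 22117 reads). The lowest Vps15LKO value was thus far above the highest WT value. The log2 fold change was 8.18 (SE 0.31, limma adjusted p = 4.2e-07), a 290.2-fold difference, and it ranked 11 among the 15430 tested genes. Per kilobase of exon, mean Afp transcript levels went from 12.4 normalized counts in WT to 3587 in Vps15LKO livers. In RPM the livers gave 1.29 to 2.91 in WT and 566 to 1226 in Vps15LKO, a log2 fold change of 8.90. Fewer cells of a type and less RNA per cell cannot be told apart in bulk liver, so these values do not say whether many cells made some Afp or few cells made much.

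The promoter of Afp is shown because Zhx2 and Zbtb20 are known to act through it and it carries the binding letters of FOXA factors, which are activators of liver genes. The 300 bases below, from RefSeq (GRCm38.p6, chr5:90490464-90490763, plus strand), run from 250 bases before to 50 bases from the RefSeq start site, which lies at 90490714. Capitals mark, in order, the FOXA core TGTTTGC and the TATA box TATAAA.
Afp promoter: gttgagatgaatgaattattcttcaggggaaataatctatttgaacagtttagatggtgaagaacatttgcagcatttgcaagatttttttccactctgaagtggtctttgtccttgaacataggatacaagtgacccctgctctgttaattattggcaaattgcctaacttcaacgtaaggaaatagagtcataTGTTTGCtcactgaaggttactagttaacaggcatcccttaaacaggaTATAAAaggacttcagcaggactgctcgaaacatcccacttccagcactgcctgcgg
Counted from the RefSeq start, the 2 matches span -55 to -49 and -7 to -2. The start annotated in GENCODE, 90490737, lies downstream of it, so these positions are shifted against a numbering from that start. A FOXA core, TGTTTAC or TGTTTGC on either strand, occurred in 8.48% of 32851 RefSeq windows of this length and TATAAA in 13.6%. RefSeq windows were found for 8 of the 10 genes. The E-box CACGTG, which reads the same on both strands and is the motif bound by Bmal1-Clock, occurred 2 times in the Igf2bp3 window (-23 to -18 and 6 to 11) and once in that of Lin28b (-49 to -44, counted from the RefSeq start at 45470201, which lies 16194 bases inside the GENCODE gene body), compared with 7.15% of all windows with at least 1 and 0.594% with at least 2. Such matches describe letters and not occupied sites.

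The other members of the albumin family were not called higher. Albumin (Alb), the main plasma protein of the adult liver, read 2350416, 2169879 and 2030859 normalized counts in WT and 786995, 968935 and 620735 in Vps15LKO livers. These groups did not overlap, yet the log2 fold change of -1.48 had an SE of 1.38 in the limma fit with a mean-variance trend (adjusted p = 0.366). Alb passed the threshold as lower in limma without the trend (adjusted p = 0.00046), in edgeR (adjusted p = 0.0075), in DESeq2 and in limma voom. Afamin (Afm), a vitamin E-binding protein encoded next to Afp, fell, with 5338 to 6265 in WT and 1151 to 2265 in Vps15LKO livers (log2 fold change -1.78, SE 0.22, adjusted p = 0.00014). The vitamin D-binding protein gene Gc fell by 0.90 on the log2 scale (SE 0.33, adjusted p = 0.0403), but it was not called when scaled to total reads (log2 fold change -0.17) or under quantile normalization, where its direction turned (0.24). Its call was also lost when any liver other than Vps15LKO replicate 2 was left out, and without the filter on low values (limma adjusted p of 0.0506 to 0.168). Alb ranked first in every liver and so received the same value in all of them under quantile normalization, whereas Afm stayed lower there (-1.25) and under total-read scaling (-1.05).

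The ratio of Afp to Alb reads within a library does not depend on any scaling. It was 1.30, 1.44 and 3.12 Afp reads per 100000 Alb reads in WT livers and 1563, 856 and 2520 in Vps15LKO livers. The mean log2 ratio was -15.76 ± 0.69 (SD, n = 3) in WT and -6.06 ± 0.78 (SD, n = 3) in Vps15LKO livers, a difference of 9.70. The exact two-sided permutation p was 0.1, the smallest that 3 livers against 3 can give.

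**Figure D2:**
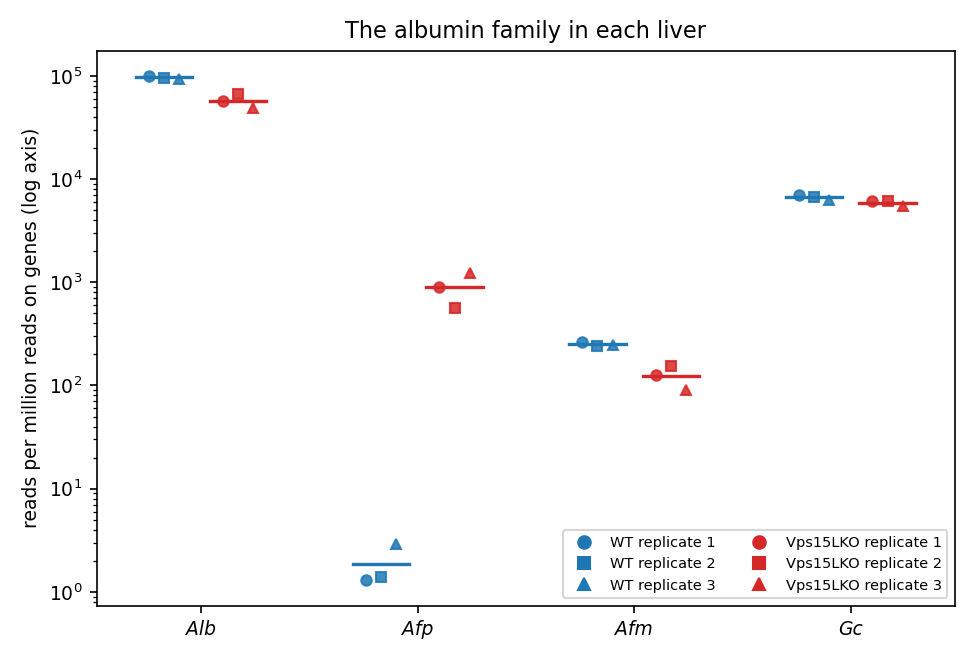
RPM (reads per 1000000 reads on genes) of Alb, Afp, Afm and Gc, on a log axis, in 3 WT (blue) and 3 Vps15LKO (red) livers, with bars at the group means. Afp lies at 1.29 to 2.91 in WT and at 566 to 1226 in Vps15LKO livers, where it exceeds Afm, while Alb stays the highest of the 4 in every liver.

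The 3 repressors of Afp did not change together, and the call of each depended on the scaling, as did the direction of Zhx2. Zbtb20, a zinc finger protein that silences Afp after birth, was lower in Vps15LKO livers by the deposited scaling. Its values (ENSMUSG00000022708, chr16:42875881-43642602) were 1809, 2318 and 3997 in WT and 1583, 1340 and 1544 in Vps15LKO livers. The groups did not overlap, although WT replicate 1 lay close to the Vps15LKO livers and WT replicate 3 stood above the other two. This was a log2 fold change of -0.78 (SE 0.25, limma adjusted p = 0.0220). Without Vps15LKO replicate 2 it was -0.71 and the call was lost (adjusted p = 0.0563), and without WT replicate 3 it was -0.46 (adjusted p = 0.0176). In RPM the livers gave 76.7, 102 and 184 against 116, 91.4 and 121, which overlap, and the log2 fold change was -0.06 (adjusted p = 0.849).

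Zhx2, the repressor behind the strain difference in adult Afp levels of mice, was not called. The WT livers gave 461, 480 and 403 and the Vps15LKO livers 389, 430 and 390 normalized counts (ENSMUSG00000071757, chr15:57694665-57839832), so the groups overlapped. The log2 fold change was -0.15 (SE 0.10, limma adjusted p = 0.230). Scaled to total reads it turned and was called higher, with 18.5 to 21.2 RPM in WT and 28.4 to 30.5 in Vps15LKO livers (log2 fold change 0.57, adjusted p = 0.00073). That value lay below the 0.70 of the median gene on the same scale.

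Zfhx3, a very large homeodomain protein first described as a repressor of the Afp enhancer, gave 321, 432 and 341 in WT and 492, 414 and 437 in Vps15LKO livers (ENSMUSG00000038872, chr8:107942644-108961630). One WT liver lay above the lowest Vps15LKO liver. The log2 fold change of 0.30 (SE 0.13) did not pass the test (limma adjusted p = 0.0733). It passed in edgeR (adjusted p = 0.0467), in limma voom (adjusted p = 0.0443), without WT replicate 2 (0.43, adjusted p = 0.0158) and when scaled to total reads (1.03, adjusted p = 0.00017). Of the 3 repressors, then, only Zbtb20 was called lower by the deposited scaling, and none was called lower as a share of reads.

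Homologues of the repressors were lower by the deposited scaling. Of the 6 genes of the Zhx and Zfhx families, 4 were called lower and none higher, beside 33.0% and 33.5% of all tested genes, with a median log2 fold change of -0.71 against -0.02 for all tested genes. Zhx1 changed by -0.87, Zhx3 by -1.17, Zfhx2 by -0.83 and Zfhx4 by -0.60. Scaled to total reads, Zhx3 alone was called lower (-0.44), Zhx2 and Zfhx3 were called higher, and Zfhx4 turned to 0.13 and was not called. The 8 activators of Afp described here gave a similar picture, with 6 called lower, none higher and 2 not called (median -0.78), and with 2 called lower and 1 higher when scaled to total reads, where 11.1% of all tested genes were called lower and 66.7% higher. Cebpa, a master regulator of the mature hepatocyte, fell by 1.94 on the log2 scale and Hnf4a, which sustains the hepatocyte programme, fell by 1.38, and both stayed lower when scaled to total reads (-1.22 and -0.66). Nr5a2 (-0.84), Cebpb (-0.72), Foxa1 (-0.56) and Foxa3 (-0.56) were called lower by the deposited scaling but not when scaled to total reads, where they were at -0.11, 0.01, 0.16 and 0.16. Foxa2 (-0.24) was not called by the deposited scaling but was called higher when scaled to total reads (0.48). Onecut1 (-1.01, SE 0.41, adjusted p = 0.0549) did not pass the test, with WT replicate 3 at 954 and the 5 other livers at 182 to 306, and 52.8% of its exon bases are shared with Gm20649 on the same strand.

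**Figure D3:**
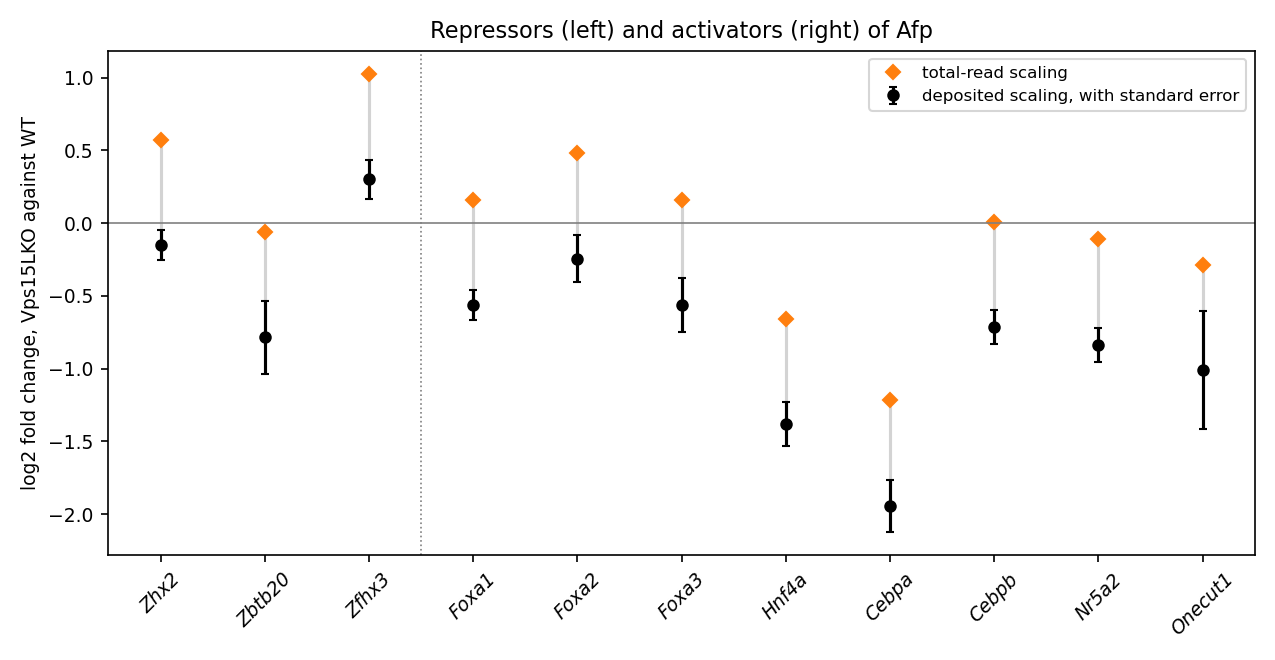
Log2 fold change, Vps15LKO against WT, of 3 repressors (left of the dotted line) and 8 activators of Afp. Black points with standard errors use the deposited scaling and orange diamonds scaling to total reads, joined by a grey line. The shift between the 2 scalings carries Zhx2 across 0, while Cebpa and Hnf4a stay below 0 under both.

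Gpc3 followed Afp at a lower level. It read 41.1, 52.5 and 49.9 in WT and 718.6, 549.4 and 949.2 in Vps15LKO livers (ENSMUSG00000055653, chrX:52272426-52613950), with all Vps15LKO livers above all WT livers. Gpc3 had a log2 fold change of 3.89 (SE 0.20, limma adjusted p = 1.7e-06), a 14.9-fold difference that ranked 372 among tested genes. Other glypicans, which are likewise heparan sulfate proteoglycans anchored to the cell surface, moved less. Gpc6 rose, with 25.2 to 36.4 in WT and 93.9 to 120.2 in Vps15LKO livers (log2 fold change 1.87, SE 0.21, adjusted p = 7.5e-05). Gpc1 (-0.21, adjusted p = 0.122) and Gpc4 (-0.02, adjusted p = 0.844) were not called, although both were called higher when scaled to total reads (0.51 and 0.71). Gpc2 stayed under the filter at 0 to 2.5 in WT and 9.2 to 26.2 in Vps15LKO livers, and Gpc5 had no read. Gm43720, on the same strand, shares 55.6% of the exon bases of Gpc2 and was given 7 to 9 reads in WT and 36 to 71 in Vps15LKO livers, so the level of Gpc2 depends on how shared reads were counted.

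Among the RNA-binding proteins, Igf2bp3 rose, Igf2bp2 rose less and Igf2bp1 stayed at the limit of detection. Igf2bp3 (ENSMUSG00000029814, chr6:49085223-49214957) gave 15.9, 17.5 and 72.8 in WT and 370.4, 401.1 and 351.5 in Vps15LKO livers. The Vps15LKO livers were close to each other, and WT replicate 3 stood above the other WT livers. The log2 fold change was 3.72 (SE 0.49, limma adjusted p = 0.00020), and 4.41 without WT replicate 3. Exons of Malsu1 on the opposite strand share 18.7% of the exon bases of Igf2bp3. Malsu1 itself was given 237 to 244 reads in WT and 401 to 439 in Vps15LKO livers. How the counting treated strand was not given in the sources used here, so reads of the 2 genes in the shared bases may not be told apart.

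Igf2bp2 (ENSMUSG00000033581, chr16:22059009-22163299), the paralogue that adult tissues retain most, gave 13.26, 24.98 and 26.96 in WT and 61.9, 72.9 and 59.4 in Vps15LKO livers, again without overlap. Its log2 fold change was 1.59 (SE 0.29, limma adjusted p = 0.0012). It rested on 10 to 20 reads per WT liver and 81 to 90 per Vps15LKO liver. Igf2bp1 (ENSMUSG00000013415, chr11:95957163-96005940) had no read in the WT livers and 0, 1 and 2 reads in the Vps15LKO livers. That is below the 3 reads a count of 0 allows, so no fold is given. Per kilobase of exon, Igf2bp3 made up 38.8% to 71.0% of the summed level of the 3 paralogues in WT and 83.2% to 84.5% in Vps15LKO livers.

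Hmga2 (ENSMUSG00000056758, chr10:120361275-120476469) had few reads. There were 1, 3 and 4 in WT and 42, 18 and 92 in Vps15LKO livers, which is 1.3, 3.7 and 5.4 against 32.1, 14.6 and 65.1 normalized counts. The groups did not overlap, and the Vps15LKO livers differed among themselves by 4.46-fold. Pooled over libraries, 8 reads of WT stood against 152 of Vps15LKO livers, a ratio of read shares of 18.3 (95% interval 9.05 to 43.1, counting error only). In a fit of all 29328 genes with any read, where 41.4% of genes were called, the log2 fold change was 2.97 (SE 0.59, limma adjusted p = 0.0023). It missed the threshold without Vps15LKO replicate 1 (2.96, adjusted p = 0.0684) or replicate 3 (2.46, adjusted p = 0.0532), and it was 1.67 with a pseudocount of 10 (range over alternatives 1.67 to 3.57). Exons of the antisense gene 1700006J14Rik, which had 0 to 2 reads in WT and 5 to 14 in Vps15LKO livers, share 2.07% of the exon bases of Hmga2. Its homologue Hmga1 was called higher at 386 to 441 in WT and 735 to 767 in Vps15LKO livers (log2 fold change 0.87, SE 0.09, adjusted p = 5.4e-05).

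Lin28b (ENSMUSG00000063804, chr10:45376620-45486395) had no read in any of the 6 livers. A count of 0 allows up to 0.166 to 0.186 RPM per library, so the gene was not detectable at this depth in either group. Its homologue Lin28a had 2, 0 and 1 reads in Vps15LKO livers and none in WT, and Trim71, a stem cell gene that is also controlled by let-7, had at most 1 read in any liver. Neither Lin28b nor Lin28a exceeded the 3 reads that a count of 0 allows in any liver. Their part in the higher levels of Igf2bp3, Igf2bp2 and Hmga2 was not tested.

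Matches to the seed of the let-7 microRNAs were counted in the 3′ UTRs of these genes, as a description of letters and not of sites in use. RefSeq lists 11 mouse microRNAs of the family, of which 10 share the seed GAGGUAG at bases 2 to 8, shown in capitals, and the eleventh, let-7j, has GAGGUAU.
let-7a-5p: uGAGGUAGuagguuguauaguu
let-7b-5p: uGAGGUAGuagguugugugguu
let-7g-5p: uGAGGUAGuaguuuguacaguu
let-7j: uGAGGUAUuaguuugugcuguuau
The match to the common seed in an mRNA is CTACCTC. The annotated 3′ UTRs of Hmga2, Igf2bp1 and Lin28b held 4 matches each and those of Igf2bp2 and Igf2bp3 held 1 each, while those of Afp, Gpc3, Zhx2, Zbtb20 and Zfhx3 held none. Of 20519 genes with a 3′ UTR, 8.41% had at least 1 match, 1.01% at least 2 and 0.146% at least 3. One site of each of the 5 genes is printed, chosen among those followed by an adenosine, on the minus strand of GRCm38, with the match in capitals.
Hmga2, chr10:120364218-120364239: ttcaatttCTACCTCagcatca
Igf2bp1, chr11:95959351-95959372: gctattaaCTACCTCagcccca
Igf2bp2, chr16:22059467-22059488: aataaaagCTACCTCaggtgtt
Igf2bp3, chr6:49086781-49086802: ttactcaaCTACCTCaggtatt
Lin28b, chr10:45381016-45381037: cgggaagtCTACCTCatgcaag
An adenosine follows 7 of the 14 matches of these genes, among them 1 of 4 in Hmga2, 3 of 4 in Igf2bp1 and 1 of 4 in Lin28b. Of the 3 genes with 4 matches, Igf2bp1 and Lin28b were too low for a fold. Libraries were made from poly(A) RNA, so mature let-7 itself was not measured.

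Genes of the let-7 route were called in both directions, as were all tested genes, of which 33.5% were called higher and 33.0% lower. Of 9 tested genes that process or degrade let-7, Tut4 (0.56) and Ago2 (0.68) were called higher, Dicer1 (-0.55), Tut7 (-0.64), Dis3l2 (-0.61) and Ago1 (-0.46) lower, and 3 were not called. Scaled to total reads, 6 were called higher and none lower, where 66.7% of all tested genes were called higher, and Ago1 turned to 0.27 (called higher), Dicer1 to 0.17, Tut7 to 0.09 and Dis3l2 to 0.12 (not called). A list of 30 known let-7 targets, which includes 5 of the 10 genes described here, had 24 tested, with 15 called higher, 4 lower and 5 not called, and a median log2 fold change of 0.86 against -0.02 for all tested genes. Of the 24, 3 passed the filter only because of the Vps15LKO livers, and the 21 at 20 or more in every liver gave 12 higher, 4 lower and a median of 0.57. Scaled to total reads, 20 were called higher and none lower, where 66.7% of all tested genes were called higher and 11.1% lower. Cdkn1a, the p53-induced inhibitor of the cell cycle, rose most (34.5 to 114.6 in WT and 999 to 1231 in Vps15LKO livers, log2 fold change 4.30). Myc and Ccnd1, drivers of proliferation, rose by 3.02 and 1.74, and Nr6a1, a nuclear receptor of early development with 8 let-7 matches, fell by 1.12, but was not called when scaled to total reads (-0.40, limma adjusted p = 0.0661).

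Most other listed genes of the fetal liver were called higher. Of 18 listed, 15 were tested and called higher, beside 33.5% of all tested genes. The list was chosen with earlier results of these data known, so this count is a description and not a test. Of these 15, H19 included, 10 passed the filter only because of the Vps15LKO livers and so had to be high there, and the other 5, at 20 or more in every liver, had a median log2 fold change of 2.53, beside 4.03 for the 15. With the filter dropped, 16 of the 18 were called higher and 1, Plag1 (-1.30, limma adjusted p = 0.0483), lower. In that fit 6853 of all 29328 genes were called higher and 5289 lower. When scaled to total reads the 15 were again called higher, where 66.7% of all tested genes were. H19, an imprinted long non-coding RNA abundant in fetal liver, read 13.3, 9.99 and 24.3 in WT and 22874 to 32315 in Vps15LKO livers (log2 fold change 10.76, SE 0.28, limma adjusted p = 8.7e-08). Igf2, the imprinted growth factor whose mRNAs the Igf2bp proteins bind, rose from 13.3, 32.5 and 28.3 to 348, 264 and 436 (log2 fold change 3.83, SE 0.33, adjusted p = 1.9e-05). Gm49394, an annotated gene on the same strand, shares 62.8% of the exon bases of Igf2 and was given 10 to 26 reads in WT and 319 to 611 in Vps15LKO livers, so how reads of the shared bases were assigned bears on the printed level of Igf2. Exons of other genes likewise share 23.4% of the exon bases of Ccnd1, 20.7% of Cebpb, 18.9% of Gpc1, 18.8% of Spp1, 17.9% of Zfhx2 (antisense Zfhx2os) and 11.0% of Zhx1. Dlk1, a marker of fetal hepatoblasts, was under the filter, with 0, 3.7 and 2.7 in WT and 11.5, 8.1 and 33.9 in Vps15LKO livers. Plag1 and Sall4, also under the filter, stayed at 8.1 or less in every liver.

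The order of the livers was compared as a description. Among the Vps15LKO livers, replicate 2 was lowest and replicate 3 highest for Afp, Gpc3, Hmga2, Igf2 and Dlk1, whereas replicate 3 was lowest and replicate 2 highest for Igf2bp2 and Igf2bp3. The order of these last genes depended on the scaling. In RPM, Vps15LKO replicates 1, 2 and 3 gave 4.52, 4.98 and 4.65 for Igf2bp2 and 27.0, 27.4 and 27.5 for Igf2bp3. Among the WT livers, replicate 3 was highest for Afp, Zbtb20, Igf2bp2, Igf2bp3 and Hmga2. The same WT liver had the highest sum over 12 genes of dividing cells, 766 normalized counts against 412 and 320. The 5 tested genes whose profile over the 6 livers was most like that of Afp were Krt5, Ly6d, Cldn4, Cdh17 and Lrtm2, with root mean square differences of 0.38 to 0.57 on the log2 scale after centring each gene on its WT mean. All 5 passed the filter only because of the Vps15LKO livers, and Krt5, Cldn4, Cdh17 and Lrtm2 had 0 to 3 reads in each WT liver, so the size of their rise depends on the pseudocount. Krt5, a basal keratin, had no read in WT and 252 to 330 normalized counts in Vps15LKO livers. Ly6d, a surface antigen, read 13.3, 13.7 and 33.7 in WT and 4637, 5573 and 4564 in Vps15LKO livers, so its Vps15LKO livers did not follow the order of Afp.

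Levels between genes were compared per kilobase of exon. In WT livers the order of mean levels was Zhx2 (101 normalized counts per kilobase), Zbtb20 (88.1), Gpc3 (17.8), Zfhx3 (17.4), Afp (12.4), Igf2bp3 (4.34), Igf2bp2 (2.94) and Hmga2 (0.52). Zhx2 and Zbtb20 overlapped, as did Gpc3, Zfhx3 and Afp, and as did Igf2bp3 and Igf2bp2. In Vps15LKO livers it was Afp (3587), Gpc3 (274.7), Zhx2 (90.9), Zbtb20 (48.5), Igf2bp3 (45.9), Zfhx3 (21.3), Igf2bp2 (8.75) and Hmga2 (5.50), where Zbtb20 overlapped with Igf2bp3 and Igf2bp2 with Hmga2. The repressors that led the list in WT livers thus lay below Afp and Gpc3 in Vps15LKO livers.

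**Figure D4:**
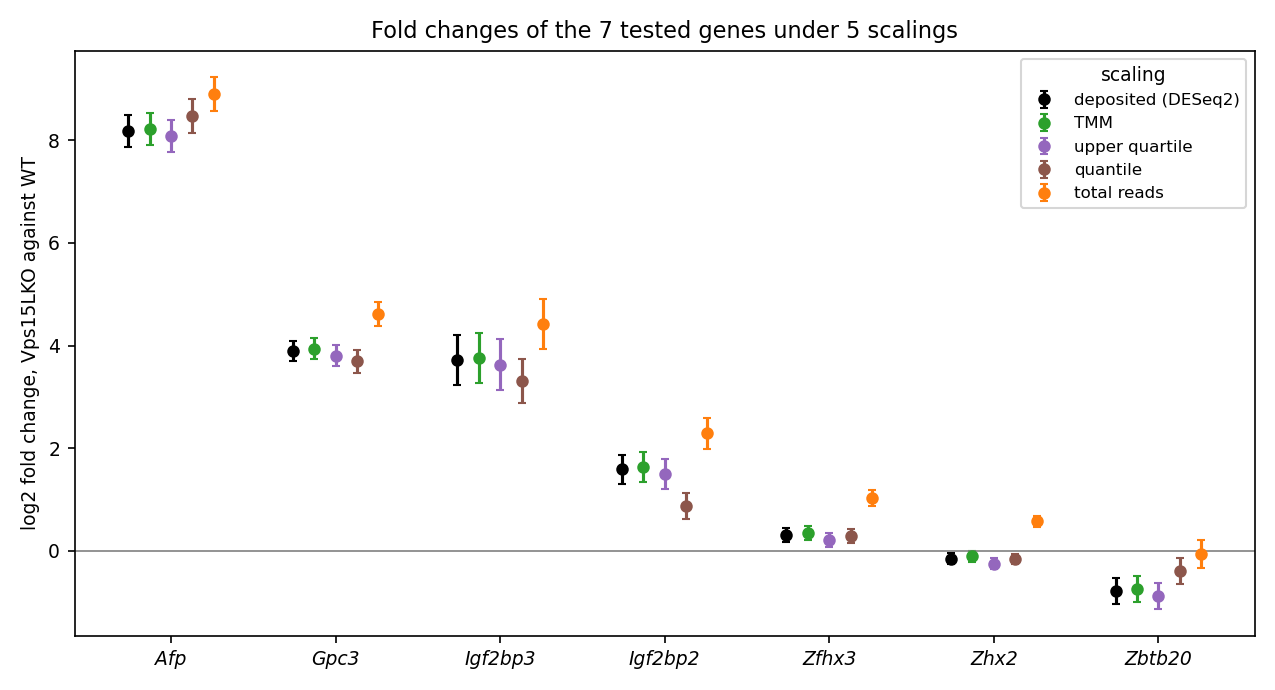
Log2 fold change, Vps15LKO against WT, of the 7 tested genes under 5 ways of scaling the libraries, with bars of 1 standard error. Afp, Gpc3, Igf2bp3 and Igf2bp2 lie above 0 under all 5, and Zhx2 goes from -0.15 by the deposited scaling to 0.57 by total reads.

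Markers of several cell types moved along with these genes. Of 14 hepatocyte markers 12 were called lower and none higher (median -1.92), beside 33.0% of all tested genes called lower, led by Cyp2e1 (-3.47). Under quantile normalization 8 were called lower (median -0.51). Their summed RPM were 161819 to 170273 in WT and 84719 to 110350 in Vps15LKO livers. Most of this was Alb, at 93360 to 99616 RPM in WT and 48634 to 66102 in Vps15LKO livers, which the main test did not call. The 12 genes of dividing cells were called higher (median 3.72), beside 33.5% of all tested genes, led by Ccnb1 (5.24). Of the 12, 7 passed the filter only because of the Vps15LKO livers, and the other 5 had a median of 2.37. Summed levels of the 12 were between 320 and 766 in WT livers and between 4134 and 4476 in Vps15LKO livers. Of 8 tested markers of bile duct and progenitor cells 7 were called higher, beside the same 33.5%, and 1 was not called (median 3.28). Of the 8, 4 passed the filter only because of the Vps15LKO livers, the other 4 having a median of 2.62. Their sums were 983 to 1777 in WT and 12108, 15557 and 23246 in Vps15LKO replicates 2, 1 and 3, the same order as Afp. Spp1 (osteopontin) rose by 4.69, the most of those averaging 100 or more.

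Markers of non-epithelial cells also differed. Read against the 33.5% of all tested genes called higher, all 10 stellate cell and fibroblast markers were called higher (median 2.26), led by Col1a1 (4.39), with sums of 7095 to 7597 in WT and 30561 to 36135 in Vps15LKO livers. Of 10 macrophage markers 8 were called higher (median 1.46), among them Cx3cr1 (5.31), with sums of 5269 to 6514 in WT and 19213 to 20106 in Vps15LKO livers. Of the 10, 1 passed the filter only because of the Vps15LKO livers, and of the other 9 there were 7 called higher (median 1.45). Of 8 tested lymphocyte markers 7 were called higher (median 1.59), among them Ighm (0.98), and 5 of the 8 passed the filter only because of the Vps15LKO livers, with sums of 278 to 432 and 689 to 841 and with Ms4a1 under the filter. Only 2 were at 20 or more in every liver, both called higher (median 1.37). Under quantile normalization 5 of the 8 were called higher and 1 lower (median 0.81). Of 10 endothelial markers 4 were called higher (Lyve1 at 0.95) and 4 lower (Kdr at -0.92), near the shares of all tested genes, and their sums overlapped (9954 to 10980 in WT and 9432 to 11030 in Vps15LKO livers). Scaled to total reads, 7 of them were called higher and none lower, where 66.7% of all tested genes were called higher and 11.1% lower. TMM scaling, quantile normalization and edgeR each gave 2 endothelial markers called lower. Of 8 tested markers of erythroid cells and blood progenitors, which fill the fetal liver, 4 were called higher, among them Cd34 (3.22), and 1 lower, beside 33.5% and 33.0% of all tested genes, with sums of 2965 to 4280 in WT and 4514 to 5953 in Vps15LKO livers. Of the 8, 1 passed the filter only because of the Vps15LKO livers, and of the 6 at 20 or more in every liver 3 were called higher and none lower. Scaled to total reads, 7 of the 8 were called higher and 1 lower, where 66.7% of all tested genes were called higher. Among them Gata1 had no read in WT and at most 2 in Vps15LKO livers, and Klf1, the gene called lower, read at least 58.0 in the WT livers but at most 18.3 in the Vps15LKO livers. The part of these cell types in the levels of Afp and the oncofetal genes was not tested.

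**Figure D5:**
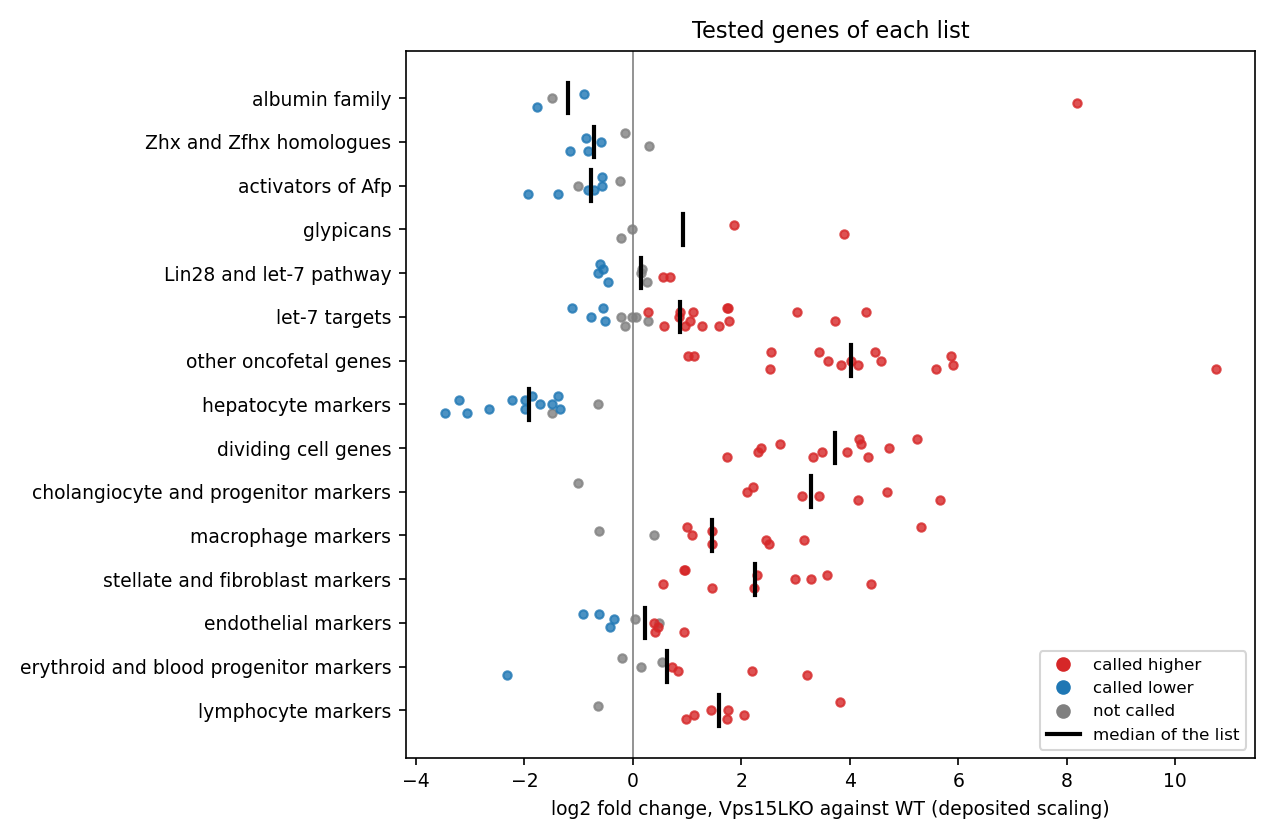
Log2 fold change, Vps15LKO against WT by the deposited scaling, of the tested genes of each list, with red points called higher, blue called lower, grey not called and a black line at the median of the list. The 15 other oncofetal genes and the 12 genes of dividing cells all lie above 0, and no hepatocyte marker lies above 0.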

How the data were processed

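Poly(A) RNA of whole liver was sequenced on a DNBSEQ-400 from a kit that marks strand. Per the study's methods and the submitters' processing notes, the authors cleaned reads with SOAPnuke, aligned to GRCm38/mm10 (HISAT2), summed reads over genes (featureCounts) and scaled libraries by DESeq2 size factors. Versions, strand and multimapping settings are not given in the sources used here. The deposited values are a signal: gene counts divided by size factors. Whole reads were recovered from their steps for 100% of values above 0, each within 0.01 of a whole number of reads (16137093 to 18110223 reads per library).

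Log2(normalized count + 1) was tested with limma 3.58.1 (R 4.3.3; mean-variance trend, 3 WT against 3 Vps15LKO livers) on 15430 of 56305 genes with 20 or more in at least 3 livers. Benjamini-Hochberg adjusted p-values are over all tested genes, and folds understate changes of low genes. edgeR 4.0.16 on recovered reads, rounded to whole numbers, called 10205 genes, beside 10262 in limma. Per the study's methods, matings aimed at litters with both genotypes, but no replicate number is tied to a litter. Replicates of a group differed by more than sampling noise. The limma step was tested on simulated data.

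Gene symbols, exons and UTRs came from GENCODE M21 (55141 IDs matched), and promoters and microRNAs from RefSeq. The 10 genes and 15 lists were chosen with earlier results of these data known. Genes named were the 10, fixed relatives of them, the largest rise and fall of a list at a mean of 100 or more, and the 5 most like Afp; Myc, Ccnd1, Klf1, Gata1, Tut4, Dicer1, Dis3l2, Ago1, Malsu1, 1700006J14Rik, Gm49394, Gm43720, Gm20649 and genes under the filter were named after their values were seen. Some listed genes are not reported here and were left out of their lists.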

Additional observations from a re-analysis of the deposited data

How the results depend on the processing

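Afp, Gpc3, Igf2bp2 and Igf2bp3 kept their direction and their call under every alternative in which they were tested, with log2 fold changes of 7.88 to 8.90, 3.67 to 4.61, 0.87 to 2.29 and 3.30 to 4.42. Zhx2 reversed under total-read scaling (0.57) and Gc under quantile normalization (0.24). Total-read scaling gave 10299 genes called higher and 1712 lower, of which 0 lower among the 10 genes. The 1 lower call, Zbtb20, was also lost (0 lower) under quantile normalization, at an adjusted p under 0.01 and at a fold of at least 2, where 5185 genes were called, 3228 higher and 1957 lower. Requiring 20 in every liver left 3 of the 10 genes called and 2 higher, since Igf2bp2 and Igf2bp3 were then not tested. Leaving out 1 liver at a time gave 9098 to 10222 genes called (4648 to 5152 higher and 4450 to 5070 lower), 4 to 6 of the 10 genes called, 4 to 5 higher and 0 to 1 lower, and an Afp to Alb difference of 9.33 to 10.11.

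Replicate numbers are shared by the groups but are not tied to litters or days, and deviations of same-numbered livers correlated at -0.01, -0.01 and 0.05, so the numbers do not pair the livers. With a replicate block 10048 genes were called, the Afp change was 8.18, and the paired Afp to Alb difference of 9.70 had an exact two-sided permutation p of 0.25, the smallest 3 pairs can give. The block changed no call among the 10 genes. The Alb test without a trend under total reads was added after the data were seen (-0.76, adjusted p = 0.0021, limma). Hmga2, Igf2bp1 and Lin28b are limited by depth.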
